A study of Sus scrofa with 24 samples.

Results

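Genes for mitochondrial ribosomal proteins were followed in pig offspring through 4 stages of development. The members were the probe sets whose single gene symbol in the platform annotation began with MRPL, for the large subunit, or MRPS, for the small subunit. Where several probe sets carried a symbol, the one with the highest mean log2 signal over all arrays stood for the gene. The rule found 77 probe sets of 58 genes, among 23935 probe sets and 6765 genes with a single symbol. Of the 58 genes, 37 encode proteins of the large subunit and 20 proteins of the small subunit. MRPS30 was counted with the large subunit, where its protein sits despite the name. MRPS36 was kept apart, because its protein is now known as a component of the 2-oxoglutarate dehydrogenase complex.

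The series measured messenger RNA of 24 offspring of German Landrace gilts on Affymetrix Porcine Genome arrays, with 1 array per animal. There were 6 animals at 94 days post conception (94 dpc, before birth) and 6 animals each at 1, 28 and 188 days post natum (dpn). Animals are numbered 1 to 6 within a stage in the order of deposition. All mothers had received a high protein diet in gestation, so that diet is shared by the 4 stages and was not compared with another. The offspring of 3 gilts were collected per stage, and which animals shared a mother is not given in the labels.

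Mitochondria have ribosomes of their own, which translate the few proteins encoded in mitochondrial DNA. These proteins are core subunits of the respiratory complexes and of ATP synthase. All mitochondrial ribosomal proteins are encoded in the nucleus, made by cytosolic ribosomes and imported. Some descend from proteins of the bacterial ribosome and are called conserved here, and the others, called mitochondria-specific, were added during the evolution of the organelle.

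Signals are the deposited linear intensities in scaled units, and they were compared between stages for the same probe set only. The labels name liver as the tissue and the series title names muscle. In every array the median of 19 skeletal muscle markers exceeded the signal of at least 99.07% of probe sets. The median of 16 plasma protein genes of the liver ranked between 16.17% and 98.55%. The albumin gene ALB read 12421 to 56933 in 188 dpn animals 1, 2 and 3 and 80.1 to 280.5 in the other 3 animals of that stage. In 1 dpn animals 1 to 3 the 5′ probe set of the elongation factor control read 0.0963 to 0.135 of its 3′ probe set. This ratio was 0.512 to 0.703 in the other postnatal arrays and 0.988 to 1.05 at 94 dpc. It thus also separated 94 dpc from every later stage, and its part in the comparisons with 94 dpc was not tested. For the GAPDH control the ratio was 0.780 to 0.870 at 94 dpc, inside the range of 0.424 to 0.996 at 1 dpn. It was 0.614 to 0.736 over the arrays of 28 and 188 dpn. Counts, and calls of named genes that changed without these arrays, are given with and without them.

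The signal of the family was higher after birth than before it in the scaling of the deposited values. The median signal of the 58 genes lay between 1021 and 1297 in the arrays of 94 dpc. It lay between 1576 and 2805 at 1 dpn, between 1656 and 1950.5 at 28 dpn and between 1454 and 1818 at 188 dpn. Every postnatal array lay above every array of 94 dpc, and the 3 postnatal stages overlapped each other. Between 94 dpc and 1 dpn the median log2 difference over all probe sets was -0.15, with quantile normalization 0.03 and with centring on array medians 0.17. Between 28 and 188 dpn these values were -0.18, 0.01 and 0.09, and between 94 dpc and 188 dpn -0.29, 0.05 and 0.25. Of all probe sets called, 32.8%, 47.7% and 59.2% were higher at 1 dpn than at 94 dpc under the 3 scalings, 28.2%, 42.0% and 62.9% were higher at 188 than at 28 dpn, and 31.3%, 48.9% and 60.8% were higher at 188 dpn than at 94 dpc. In tissue pieces measured in bulk, fewer cells of a type and less RNA per cell cannot be told apart.

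**Figure D1:**
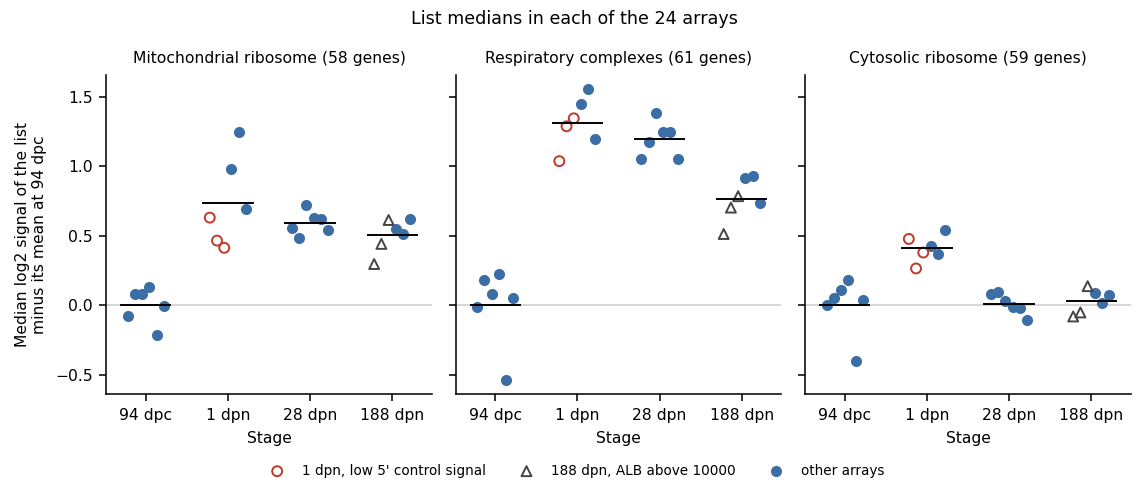
Median log2 signal of the mitochondrial ribosomal genes (58), the genes of the respiratory complexes (61) and the cytosolic ribosomal genes (59) in each of the 24 arrays, by stage. The y axis is the array's list median minus the mean of that list at 94 dpc, points are arrays, lines are stage means, open circles are the 3 arrays of 1 dpn with low 5′ control signal and triangles the 3 arrays of 188 dpn with ALB above 10000. The mitochondrial ribosomal genes stay above 94 dpc in all postnatal arrays, the respiratory genes lie further above it, and the cytosolic ribosomal genes are above all arrays of 94 dpc at 1 dpn only, and both of these positions turn with quantile normalization (median differences at 1 dpn of 0.80 for the mitochondrial ribosomal, 0.77 for the respiratory and -0.15 for the cytosolic ribosomal genes).

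Set within the same array against the median of 61 genes of the respiratory complexes, the family's log2 signal was lower after birth in the deposited values. This difference ran from -2.76 to -2.33 at 94 dpc, from -3.59 to -2.97 at 1 dpn, from -3.34 to -3.16 at 28 dpn and from -3.07 to -2.77 at 188 dpn. The postnatal arrays did not overlap with those of 94 dpc, although the gap between 94 dpc and 188 dpn was narrow. Against the median of 59 cytosolic ribosomal genes, the difference ran from -4.80 to -4.53 at 94 dpc. It ran from -4.68 to -3.84 at 1 dpn, which overlapped with 94 dpc, and from -4.34 to -4.03 over the arrays of 28 and 188 dpn, all of which were higher than 94 dpc. These differences do not change with a constant that scales an array, but they do with quantile normalization. Under it the median difference from 94 dpc was 0.80 for the family and 0.77 for the respiratory genes at 1 dpn, and 0.55 and 0.11 at 188 dpn, so that the order of the lists turned. They describe how unequally the lists changed between stages, and the level of 1 list against another is not read from them.

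The first comparison asked what distinguished the day after birth from late gestation. At 1 dpn 37 of the 58 genes rose against 94 dpc and 1 fell (limma, adjusted p at most 0.05 over all probe sets). Over all 6765 genes 17.1% rose and 20.7% fell. The median log2 difference of the family was 0.73, against -0.15 over all probe sets, and 53 of its 58 differences were above 0. In 23 genes no array of 1 dpn overlapped with an array of 94 dpc on the higher side, and in 0 genes on the lower side; these shares were 10.1% and 8.87% of all genes. The rise covered both subunits: 26 of 37 genes of the large subunit rose and 0 fell by limma, also at an unadjusted p of 0.05, while 11 of 20 genes of the small subunit rose and 1 fell. Median log2 differences were 0.76 and 0.71. Without the arrays with low 5′ signal 29 and 14 genes rose and 0 fell in either subunit, with medians of 0.89 and 0.81. Without the other 3 arrays of 1 dpn, 24 genes of the large subunit rose and 6 fell, with a median of 0.72. In the small subunit 8 then rose and 2 fell, and the median was 0.18.

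Among proteins at the core of the ribosome, MRPL2, a conserved protein close to the site of peptide bond formation, had the largest rise. Its signal was 686 to 1623 at 94 dpc, with a median of 1337, and 3426 to 7915 at 1 dpn, with a median of 5369. All animals at 1 dpn lay above all animals at 94 dpc, and the log2 difference was 2.13 ± 0.20 (SE, limma adjusted p = 9.27e-08), a 4.38-fold rise. A second probe set of MRPL2, with a mean signal of 1962 against 2290, rose by 0.71 ± 0.27 (limma adjusted p = 0.0457). Averaged over both the rise was 1.42. MRPS12, which lines the decoding site of the small subunit, rose 3.57-fold. It read 408 to 747 at 94 dpc, with a median of 644, and 1663 to 3262 at 1 dpn, with a median of 1829. No values were shared between the stages, with a log2 difference of 1.84 ± 0.20 (limma adjusted p = 3.85e-07). Its 2 dimmer probe sets rose by 0.94 ± 0.32 and 1.37 ± 0.30 (limma adjusted p = 0.0275 and 0.00137). On the brighter of these, 1 dpn animals 1 to 3 read 568, 700 and 493, which overlapped with 373 to 579 at 94 dpc. Averaged over the probe sets of MRPS12 the rise was 1.38.

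The central protuberance is the crown of the large subunit and is rebuilt in mitochondria with proteins of their own. Its mitochondria-specific protein MRPL38 had the third largest rise of the family. The signal was 573 to 896 at 94 dpc, with a median of 641, and 1658 to 3472 at 1 dpn, with a median of 2042. Again every animal at 1 dpn was above every animal at 94 dpc, and the log2 difference of 1.75 ± 0.17 (limma adjusted p = 1.45e-07) was 3.35-fold. MRPL40 and MRPL48 of the same structure also rose without overlap, by 1.16 ± 0.12 and 0.57 ± 0.14 on the log2 scale (limma adjusted p = 2.75e-07 and 0.00315). MRPL46 and the conserved MRPL18 differed by 0.30 ± 0.36 and 0.01 ± 0.35 over all 6 animals, and neither passed the test.

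The animals of 1 dpn fell into separate ranges in both genes. MRPL18 read 774 to 1117 at 94 dpc, and at 1 dpn 421, 565 and 429 in animals 1 to 3, which have the low 5′ signal, and 1622, 2476 and 1812 in animals 4 to 6. Animals 1 to 3 thus lay below all of 94 dpc and animals 4 to 6 above all of it. Against 94 dpc the difference was 1.03 without animals 1 to 3 and -1.02 without animals 4 to 6 (limma adjusted p = 0.000485 and 0.00022). A second probe set of MRPL18 had the opposite order, with 1161 to 2039 in animals 1 to 3 and 350.2 to 809.7 in animals 4 to 6, and differed by 0.75 ± 0.31 over all animals (limma adjusted p = 0.0673). MRPL46 read 748 to 1145 at 94 dpc, and at 1 dpn 591, 549 and 543 in animals 1 to 3 and 2262, 3339 and 2404 in animals 4 to 6. Its difference was 1.42 without animals 1 to 3 and -0.81 without animals 4 to 6 (limma adjusted p = 9.33e-06 and 0.000447). A second probe set of MRPL46 rose by 0.92 ± 0.23 over all animals (limma adjusted p = 0.00426), and it read 751 to 1123 in animals 1 to 3 and 1525 to 2403 in animals 4 to 6.

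Other proteins of the large subunit followed the same direction. MRPL10 and MRPL11, at the base of the stalk that receives translation factors, rose by 0.68 ± 0.20 and 0.67 ± 0.25 on the log2 scale (limma adjusted p = 0.0114 and 0.0414). The rise of MRPL10 was 0.31 without 1 dpn animals 1 to 3 (limma adjusted p = 0.287). That of MRPL11 was lost without any 1 of 94 dpc animals 1, 2, 3, 5 and 6 or 1 dpn animals 4, 5 and 6, with 0.45 at the least (limma adjusted p = 0.111). For MRPL11 the difference was 1.36 without 1 dpn animals 1 to 3 and -0.0086 without animals 4 to 6 (limma adjusted p = 1.08e-05 and 0.974). MRPL45, which lies at the exit of the peptide tunnel next to the inner membrane, rose by 1.00 ± 0.16 (limma adjusted p = 6.7e-05). MRPL44, with the fold of a double-strand RNase, rose by 0.53 ± 0.15, and MRPL58, related to peptide release factors, by 1.08 ± 0.19 (limma adjusted p = 0.0102 and 0.000166). The rise of MRPL44 was 0.28 when 1 dpn was represented by the arrays with low 5′ signal (limma adjusted p = 0.19).

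The only fall in the family at this comparison was that of MRPS10, a conserved protein in the head of the small subunit. It read 1225 to 1758 at 94 dpc, with a median of 1463, and 701 to 1618 at 1 dpn, with a median of 1112. The stages overlapped, and the log2 difference was -0.45 ± 0.16 (limma adjusted p = 0.0387). The call was lost under 11 of 23 alternatives, among them the omission of any 1 of 94 dpc animals 1, 2 and 3 and of 1 dpn animals 2, 3 and 4, where the difference was -0.46 to -0.33 with a highest limma adjusted p of 0.106.

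**Figure D2:**
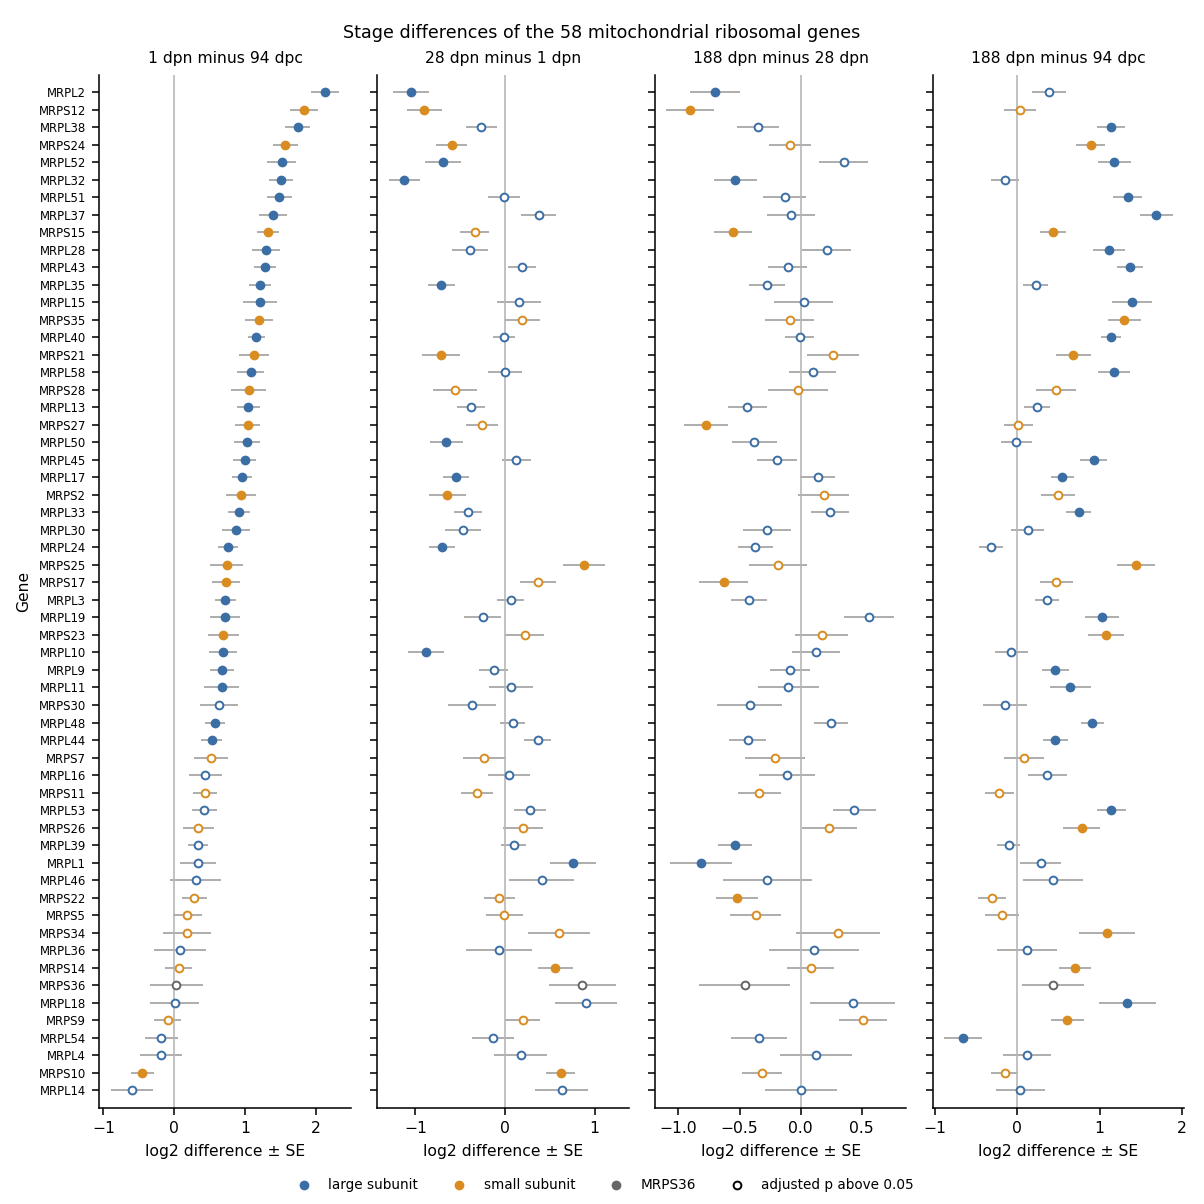
Log2 differences of the 58 genes in the 4 comparisons, in the order of the difference between 1 dpn and 94 dpc. The x axis is the fitted log2 difference with its SE (6 animals per stage), filled points have an adjusted p of at most 0.05, and colours give the subunit. Most genes lie to the right of 0 in the first and the last panel, while the 2 middle panels are spread around 0.

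All arrays of 1 dpn stood apart in the 3′ probe set of the spike-in control BioB. It read 949 to 1774 there and 445 to 837 over the arrays of the other stages. The part of this difference in the comparisons with 1 dpn was not tested. Within 1 dpn the arrays of animals 1, 2 and 3 differed from the other 3 in this family. In 21 of the 58 genes all 3 of them read lower than all 3 others and in 4 genes all 3 read higher, against 12.4% and 11% of all genes, and the median log2 difference was -0.37. Without these arrays 43 genes rose and 0 fell between 94 dpc and 1 dpn, and the median difference was 0.85. Without the other 3 arrays instead, 32 genes rose and 8 fell, and the median was 0.71. The count of genes that fell also became 0 without 94 dpc animal 1, 2 or 3 or 1 dpn animal 2 or 3, and 2 without 1 dpn animal 6. Skeletal muscle markers moved with the stage too: 13 of 19 rose, and their summed signal went from 296497 to 434586 at 94 dpc to 577303 to 768116 at 1 dpn. Cell division markers went the other way: 11 of 12 fell, with CCNA2 under background in all arrays of 1 dpn, and their summed signal went from 5246 to 8122 to 1196 to 2344.5. Of 7 fibroblast markers 4 fell and of 7 endothelial markers 5 fell, with summed signals of 67824 to 76617 and 7456 to 13399 at 94 dpc and of 22300 to 70862 and 4020 to 7173 at 1 dpn. The part of all these markers in the family's rise was not tested.

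Between 1 and 28 dpn 4 genes of the family rose and 12 fell, against 13.3% and 13.4% of all genes. The median log2 difference was -0.01, against 0.02 over all probe sets, close to each other, and 26 of 58 differences were above 0. Of the 12 genes that fell, 8 belong to the large subunit and 4 to the small subunit, and 10 are conserved. Of all 58 genes, 37 belong to the large and 20 to the small subunit, and 34 are conserved. In 8 genes the stages did not overlap on the lower side and in 0 on the higher side, against 6.19% and 6.73% of all genes. Of the marker lists, 5 of 19 skeletal muscle, 5 of 12 cell division and 4 of 7 endothelial markers rose between these stages, to summed signals of 799830 to 1042560, 2142 to 3572 and 6629 to 9969. Of the adipocyte and macrophage markers 2 of 5 and 1 of 5 rose, and of the fibroblast markers 1 of 7 fell. Their part in the changes of the family was not tested.

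MRPL32, a conserved protein of the large subunit that is cut by the m-AAA protease before it joins the ribosome, had the largest fall. It read 1284 to 2208 at 1 dpn, with a median of 1452, and 618 to 924 at 28 dpn, with a median of 697. Both stages were fully separate, and the log2 difference was -1.13 ± 0.17 (limma adjusted p = 8.79e-05), a 2.18-fold fall. At 94 dpc its signal had been 494 to 591, so that the 1 dpn animals stood above both neighbouring stages. The second probe set of MRPL32, whose mean signal was 355, had no such peak, with -0.15 ± 0.20 from 94 dpc to 1 dpn and 0.07 ± 0.20 from 1 to 28 dpn. Averaged over the probe sets the fall was -0.53 (limma adjusted p = 0.0337).

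MRPL2 and MRPS12, the genes with the largest rises at birth, fell again. MRPL2 read 2336 to 2945 at 28 dpn, with a median of 2546, below all animals of 1 dpn. The log2 difference was -1.05 ± 0.20 (limma adjusted p = 0.000819), 2.07-fold. MRPS12 read 979.8 to 1257 at 28 dpn, with a median of 1088, which was also below all animals of 1 dpn. The difference was -0.90 ± 0.20 (limma adjusted p = 0.00202), 1.87-fold. Averaged over the probe sets of each gene the falls were -0.57 for MRPL2 and -0.59 for MRPS12 (limma adjusted p = 0.0289 and 0.0896). By the second brightest probe set alone they were -0.10 ± 0.27 and -0.36 ± 0.32 (limma adjusted p = 0.841 and 0.484). The comparisons at birth and at 28 dpn share the arrays of 1 dpn, and a high value there enters both with opposite sign.

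MRPS25, a mitochondria-specific protein of the small subunit, had the largest rise between 1 and 28 dpn that passed the test. It read 1225 to 4168 at 1 dpn, with a median of 2249.7, and 3480.5 to 4659 at 28 dpn, with a median of 4133. The 3 animals of 1 dpn with low 5′ signal read 1225, 1703 and 1466, close to the range of 94 dpc, and the other 3 read 3491, 4168 and 2796. The stages overlapped through 1 dpn animals 4 and 5. The log2 difference over all animals was 0.89 ± 0.24 (limma adjusted p = 0.00968), and without the 3 arrays with low 5′ signal it was 0.26 (limma adjusted p = 0.359).

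MRPL1, the conserved protein of the mobile L1 stalk, rose by 0.76 ± 0.25 on the log2 scale (limma adjusted p = 0.0367). Its signal was 349 to 1069 at 1 dpn, with a median of 507, and 891 to 1073 at 28 dpn, with a median of 965. The stages overlapped through 1 dpn animals 1 and 5, and the call was lost under 14 of 23 alternatives. Omission of any 1 of 1 dpn animals 2, 3, 4 and 6 or of 28 dpn animals 1 to 5 ended it, with a highest limma adjusted p of 0.0911. MRPS10 rose from 701 to 1618 at 1 dpn to 1407 to 1984 at 28 dpn, with medians of 1112 and 1668, and the stages overlapped through 1 dpn animal 6. The log2 difference was 0.62 ± 0.16 (limma adjusted p = 0.00888), and it was 0.40 without the arrays with low 5′ signal (limma adjusted p = 0.129).

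All 4 calls of a rise between 1 and 28 dpn were lost without the arrays with low 5′ signal, although the difference of MRPL1 was then 0.81 (limma adjusted p = 0.063). In that fit 0 genes rose and 13 fell, with a median of -0.31, and without the other 3 arrays 17 rose and 14 fell, with a median of 0.07. The count of rises was 2 without 1 dpn animal 2 or 3 or 28 dpn animal 1, 2, 4 or 5, and 7 without 1 dpn animal 5. Centring on array medians gave 2 rises and 12 falls.

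Between 28 and 188 dpn 0 members rose and 9 fell by limma, against 6.16% and 14.3% of all genes. At an unadjusted p of 0.05, 3 were higher and 13 lower. The median log2 difference was -0.11, against -0.18 over all probe sets, and 21 of 58 differences were above 0. In 9 genes the stages did not overlap on the lower side and in 2 on the higher side, against 11.8% and 6.59% of all genes, close to the counts over all genes. The genes that fell were MRPL1, MRPL2, MRPL32 and MRPL39 of the large subunit and MRPS12, MRPS15, MRPS17, MRPS22 and MRPS27 of the small subunit. Without the arrays with high ALB only MRPL32 and MRPS27 kept the call. The fall of MRPL32 was -0.53 ± 0.17 with all arrays (limma adjusted p = 0.0412), and its call was lost under 12 of 22 alternatives. Among them were both other scalings and the omission of any 1 of 28 dpn animals 1, 2, 4 and 6 or 188 dpn animals 3 to 6.

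MRPS12 had the largest fall, from 979.8 to 1257 at 28 dpn to 457 to 825 at 188 dpn, with medians of 1088 and 578. All animals at 188 dpn lay below all at 28 dpn, and the log2 difference was -0.90 ± 0.20 (limma adjusted p = 0.00267), 1.87-fold. Without the arrays with high ALB it was -0.71 (limma adjusted p = 0.0784). With this second fall the values of MRPS12 at 188 dpn overlapped again with those at 94 dpc, with a log2 difference between those stages of 0.03 ± 0.20 (limma adjusted p = 0.926). MRPL1 fell from 891 to 1073 at 28 dpn to 468 to 728 at 188 dpn, where its median was 537. Here too the stages were separate, and the difference was -0.81 ± 0.25 (limma adjusted p = 0.034), but the call was lost under 14 of 22 alternatives. Those included the omission of any 1 of 28 dpn animals 1 to 5 or 188 dpn animals 2 to 6, with a highest limma adjusted p of 0.0672.

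MRPS27, a mitochondria-specific protein of the small subunit with RNA-binding pentatricopeptide repeats, fell 1.71-fold. It read 1471 to 1819.9 at 28 dpn, with a median of 1545, and 787 to 1052 at 188 dpn, with a median of 926. No animal at 188 dpn reached the range of 28 dpn, and the log2 difference was -0.77 ± 0.18 (limma adjusted p = 0.00452). It was -0.50 with arrays centred on their median (limma adjusted p = 0.0861). MRPL2 fell by 0.70 ± 0.20 on the log2 scale (limma adjusted p = 0.022), and without 188 dpn animal 1 the difference was -0.62 (limma adjusted p = 0.0549). It was -0.43 with centring on array medians and -0.62 without the arrays with high ALB (limma adjusted p = 0.223 and 0.154).

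The count of falls changed with the scaling and with the arrays used. Centring on array medians gave 4 rises and 1 fall, and quantile normalization gave 0 rises and 8 falls. Without the 3 arrays with high ALB 2 genes fell. Omission of any 1 array left 5 or 6 falls, and it was 5 without 28 dpn animal 1 or 2 or 188 dpn animal 4 or 5. Within 188 dpn, 7 of the 58 genes read lower in all 3 arrays with high ALB than in the other 3 and 1 read higher, against 9.56% and 7.57% of all genes. Of 12 cell division markers 8 fell between these stages and of 7 endothelial markers 4 fell, with summed signals of 2142 to 3572 and 6629 to 9969 at 28 dpn and of 910 to 1440.0 and 3078 to 4214 at 188 dpn. Their part in the falls of the family was not tested.

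Over the whole interval from 94 dpc to 188 dpn 29 genes rose and 1 fell, against 19.9% and 30.2% of all genes. The median log2 difference was 0.47, against -0.29 over all probe sets, and 47 of the 58 differences were above 0. In 28 genes all animals of 188 dpn lay above all of 94 dpc and in 0 genes below, against 16.2% and 22.7% of all genes. Of the large subunit 19 of 37 genes rose and 1 fell, and of the small subunit 10 of 20 rose and 0 fell by limma, also at an unadjusted p of 0.05. This comparison shares the arrays of 94 dpc with the one at birth. All 19 skeletal muscle markers rose over the interval, to a summed signal of 747037 to 961576, and all 12 cell division markers fell, with CCNA2, RRM2, TOP2A and TYMS under background in every array of 188 dpn. Of 7 fibroblast markers 5 fell and of 7 endothelial markers 6 fell and 1 rose, and the part of these lists in the family's rise was not tested.

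The conserved and the mitochondria-specific proteins differed in their medians at 188 dpn in both subunits, and at birth, with all arrays, in the large subunit. At 1 dpn against 94 dpc the median log2 difference was 0.73 in 34 conserved genes and 0.74 in 23 mitochondria-specific genes. By subunit these were 0.72 and 1.01 in the large and 0.73 and 0.69 in the small subunit. Without the arrays with low 5′ signal those of the large subunit were closer, at 0.89 and 0.97. Without the other 3 arrays of 1 dpn they were 0.72 and 0.91. At 188 dpn against 94 dpc the median was 0.38 in the conserved genes, of which 13 rose and 0 fell. It was 1.08 in the mitochondria-specific genes, of which 16 rose and 1 fell. Mitochondria-specific medians were 1.03 in the large and 1.08 in the small subunit, and conserved medians were 0.36 and 0.47. With quantile normalization the same 4 medians were 0.90, 1.18, 0.44 and 0.52. With centring on array medians they were 1.57, 1.62, 0.90 and 1.00. The difference between the classes was not tested.

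MRPL37, a mitochondria-specific protein of the large subunit, had the largest rise over this interval. It read 1430.1 to 2523 at 94 dpc, with a median of 1932, and 4407 to 7624 at 188 dpn, with a median of 6532. The stages did not overlap, and the log2 difference was 1.69 ± 0.20 (limma adjusted p = 3.27e-07), 3.23-fold. All animals of 1 and 28 dpn, at 3627 to 8556 and 4960.0 to 8013, also lay above 94 dpc.

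MRPS25 rose 2.72-fold between 94 dpc and 188 dpn. It read 1032 to 1563 at 94 dpc, with a median of 1374, and 2934 to 4219 at 188 dpn, with a median of 3683. The stages did not overlap, and the difference was 1.44 ± 0.24 (limma adjusted p = 2.99e-05). MRPL15, a conserved protein inside the large subunit, rose 2.62-fold, from 1535 to 2530.4 at 94 dpc to 3808 to 7285 at 188 dpn, with medians of 2072 and 5657. All animals of the later stage were higher, and the difference was 1.39 ± 0.24 (limma adjusted p = 6.57e-05).

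MRPL54, a mitochondria-specific protein of the large subunit, was the only gene of the family that fell between these stages. It read 362 to 825 at 94 dpc, with a median of 574, and 271 to 448 at 188 dpn, with a median of 386. The stages overlapped through 94 dpc animal 5, and the difference was -0.66 ± 0.23 (limma adjusted p = 0.025). The call was lost without 94 dpc animal 2 or 3 or 188 dpn animal 4 (limma adjusted p up to 0.0687), without the 3 arrays with high ALB, and with both other scalings. Without the arrays with high ALB 25 genes of the family rose and 0 fell, with a median of 0.52.

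Over all 4 stages 48 of the 58 genes differed by the F test of limma, against 65.1% of all genes. The 10 that did not pass were MRPL4, MRPL14, MRPL16, MRPL36, MRPL46, MRPL54, MRPS5, MRPS7, MRPS30 and MRPS36. A gene was counted as highest at 1 dpn when it passed the test against each other stage, and as lowest at 94 dpc likewise. By this count 9 genes peaked at 1 dpn, against 4.66% of all genes: MRPL2, MRPL10, MRPL17, MRPL24, MRPL32, MRPL35, MRPL50, MRPS12 and MRPS24. All but MRPL50 of these 9 are conserved. Without the arrays with low 5′ signal the falls of MRPL10, MRPL50 and MRPS24 to 28 dpn were -0.51, -0.43 and -0.60. None of these passed the test. Without the other 3 arrays of 1 dpn the fall of MRPL17 was -0.36 (limma adjusted p = 0.102). With probe sets averaged that of MRPS12 was -0.59 (limma adjusted p = 0.0896). The count was 11 without the arrays with low 5′ signal, 14 without the other 3, and 6 without the arrays with high ALB. A further pattern, a low level before birth and higher levels at every later stage, was called in 21 genes, against 8.31% of all genes. They included MRPL37, MRPL38, MRPL40, MRPL43, MRPL45, MRPL48, MRPL51 and MRPL52 of the mitochondria-specific proteins and MRPL15, MRPL28 and MRPS15 of the conserved ones. With probe sets averaged, MRPL38 and MRPL52 lost their rise to 188 dpn (limma adjusted p = 0.112 and 0.635). MRPL43 and MRPL52 then lost their rise at birth (limma adjusted p = 0.0895 and 0.0748). The further probe sets had mean signals of 60.2 in MRPL38, 1315 in MRPL43 and 175.5 and 30.9 in MRPL52. For MRPS15 the rise to 188 dpn was lost under 7 of 22 alternatives (limma adjusted p up to 0.258). These included quantile normalization, where it was 0.23, and the omission of 94 dpc animal 1 or 5 or 188 dpn animal 3, 5 or 6.

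MRPL17 and MRPS24 met both definitions, with 94 dpc lowest and 1 dpn highest. The fall of MRPS24 to 28 dpn did not pass without the arrays with low 5′ signal. That of MRPL17 did not pass without the other 3 arrays of 1 dpn. MRPL17, a conserved protein near the tunnel exit, is among the 3 brightest probe sets of the family. It read 2467 to 4398 at 94 dpc, 5808 to 8549 at 1 dpn, 4433 to 5254 at 28 dpn and 4547 to 5777 at 188 dpn, with medians of 3742, 6625, 4694 and 5363. The arrays of 1 dpn lay above those of every other stage, and every array of the later stages lay above 94 dpc. The rise from 94 dpc to 188 dpn was 0.55 ± 0.14 in the deposited scaling and 0.19 with quantile normalization (limma adjusted p = 0.00354 and 0.304).

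**Figure D3:**
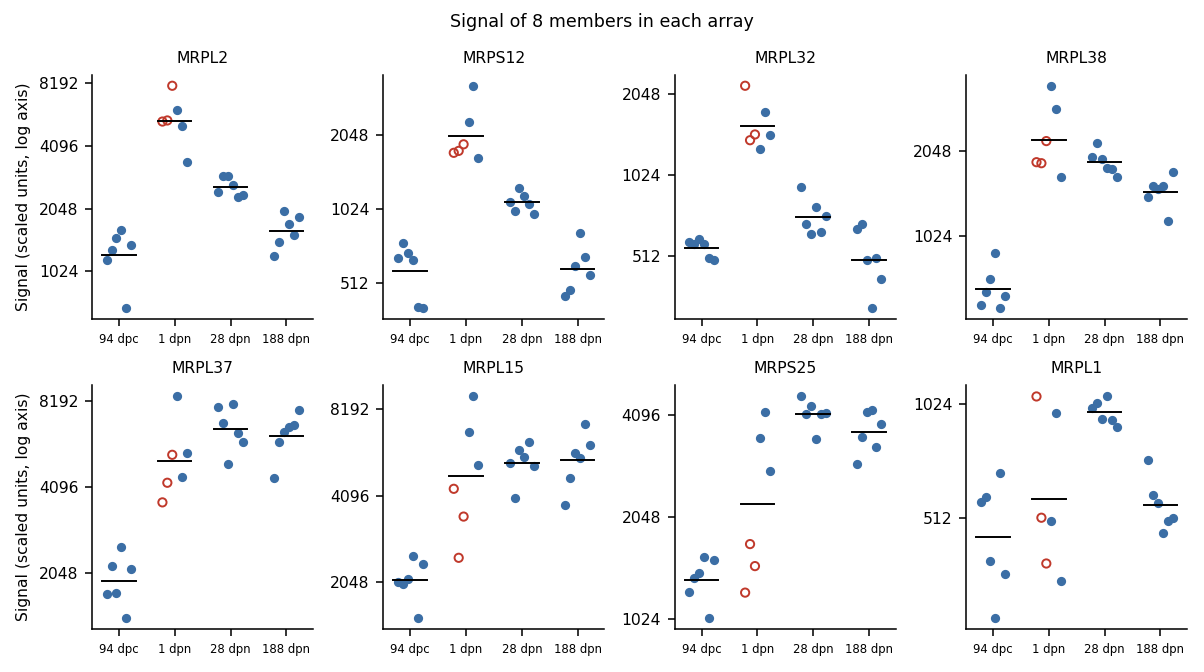
Signal of 8 mitochondrial ribosomal genes in each array, on a log axis in scaled units. Points are animals (6 per stage), lines are the geometric means of a stage, and open circles are the 3 arrays of 1 dpn with low 5′ control signal. MRPL2, MRPS12 and MRPL32 peak at 1 dpn, MRPL38, MRPL37 and MRPL15 stay above 94 dpc at later stages, MRPS25 splits at 1 dpn by the 5′ signal, and MRPL1 is highest at 28 dpn.

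The other bright probe sets were those of MRPS21, a conserved protein of the small subunit, and MRPL53, a mitochondria-specific protein near the base of the stalk. MRPS21 read 3353 to 6103 at 94 dpc, with a median of 4784, and 5129.6 to 15568 at 1 dpn, with a median of 10350.1. The stages overlapped, and it rose by 1.13 ± 0.21 on the log2 scale (limma adjusted p = 0.000294). It then fell by 0.71 ± 0.21 to 4109 to 6834 at 28 dpn (limma adjusted p = 0.0189), a call that was lost without 1 dpn animal 1 or 28 dpn animal 5 (limma adjusted p up to 0.0543). Without the 3 arrays with low 5′ signal the fall was -0.33 (limma adjusted p = 0.368). At 188 dpn it read 6211 to 7998.

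MRPL53 moved more slowly. It read 2347 to 4143 at 94 dpc, 3189 to 6919.8 at 1 dpn, 4660.1 to 5919 at 28 dpn and 6264 to 7928 at 188 dpn, with medians of 3565, 4249, 5645 and 7473. The change at birth was 0.43 ± 0.18 and did not pass the test (limma adjusted p = 0.0717). It was 0.65 without the arrays with low 5′ signal (limma adjusted p = 0.0209). The rise from 94 dpc to 188 dpn was 1.14 ± 0.18 without overlap (limma adjusted p = 1.59e-05), 2.21-fold.

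In 14 of the 58 genes more than 1 probe set carried the symbol, and the probe sets disagreed in some. All probe sets of a gene had the same sign in 8 of 14 genes at birth and in 6 between 1 and 28 dpn. They had it in 8 between 28 and 188 dpn and in 7 between 94 dpc and 188 dpn. Opposite calls were made for MRPL3 and MRPS2 at birth, for MRPS2 between 1 and 28 dpn, and for MRPL33 between 94 dpc and 188 dpn. MRPL3, a conserved protein beside the catalytic centre, read 1521 to 2283 at 94 dpc and 2254 to 3889 at 1 dpn by its brightest probe set. That was a rise of 0.72 ± 0.15 on the log2 scale (limma adjusted p = 0.000707), with stages that overlapped slightly.

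The next probe set of MRPL3 fell by 1.68 ± 0.53 (limma adjusted p = 0.0193). At 94 dpc it had read 1299.7 to 1842. The values at 1 dpn were 145, 140.5 and 158 where the 5′ signal was low, and 1431, 2044 and 1351 for animals 4 to 6. MRPS2, a conserved protein of the small subunit, rose by 0.95 ± 0.21 by its brightest probe set (limma adjusted p = 0.00128), from 431 to 716 to 678 to 1519. Its next probe set fell by 1.16 ± 0.37 (limma adjusted p = 0.0215), from 116 to 179 at 94 dpc. At 1 dpn it read 44.5, 21.1 and 45 in animals 1 to 3, under the background of 74.7, and 168, 187 and 72.3 in animals 4 to 6.

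Between 1 and 28 dpn the brightest probe set of MRPS2 fell by 0.64 ± 0.21 (limma adjusted p = 0.0298) and the next one rose by 1.35 ± 0.37 (limma adjusted p = 0.013). The fall was lost without 1 dpn animal 1, 2, 3 or 4 or 28 dpn animal 1, 3 or 6, with a limma adjusted p of up to 0.0711. Without 1 dpn animals 1 to 3 together it was -0.34 and the rise at birth was 0.64, and neither passed the test (limma adjusted p = 0.405 and 0.0536). MRPL2 showed the same division without an opposite call. Its next probe set read 1539.8, 1394 and 1539 in 1 dpn animals 1 to 3, inside the 94 dpc range of 1151 to 1903, and 4778, 4766 and 3254 in animals 4 to 6. By its brightest probe set all 6 animals were above 94 dpc. Where the probe sets lie along the transcripts was not analysed here.

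MRPL33, a small conserved protein of the large subunit, was divided in another way. Its brightest probe set rose from 1406 to 1986 at 94 dpc to 2363 to 3446 at 188 dpn, by 0.74 ± 0.16 on the log2 scale (limma adjusted p = 0.000535). The next probe set fell from 369 to 626 to 84.2 to 186, by 2.13 ± 0.28 (limma adjusted p = 1.79e-06). Neither pair of stages overlapped. On the second probe set 1 dpn animals 1 to 3 read 725, 309 and 201 and animals 4 to 6 read 166, 387 and 303, so that both sets of animals overlapped.

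**Figure D4:**
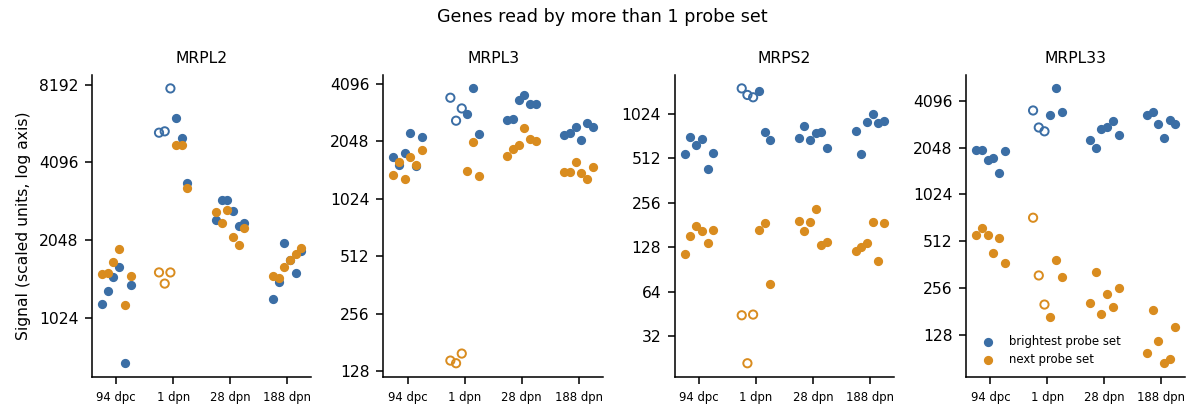
Signal of the brightest and the next probe set of MRPL2, MRPL3, MRPS2 and MRPL33 in each array, on a log axis in scaled units. Blue points are the brightest and orange points the next probe set, and open symbols are the 3 arrays of 1 dpn with low 5′ control signal. In MRPL2, MRPL3 and MRPS2 the next probe set is lower in those 3 arrays than in the other arrays of 1 dpn, and in MRPL33 the probe sets part over time.

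Other proteins of the mitochondrial ribosome carry names without MRPL or MRPS, and 4 of them were measured. At birth CHCHD1, of the small subunit, rose by 0.69 ± 0.14 and GADD45GIP1, of the large subunit, by 1.04 ± 0.18 (limma adjusted p = 0.000867 and 0.000128). DAP3 and PTCD3 of the small subunit differed by 0.22 ± 0.17 and 0.21 ± 0.20 and did not pass. DAP3 was highest at 28 dpn, with a rise of 0.62 ± 0.17 from 1 dpn and a fall of 0.53 ± 0.17 to 188 dpn (limma adjusted p = 0.0109 and 0.0345). Without the arrays with low 5′ signal the rise of DAP3 was 0.33 (limma adjusted p = 0.24). Its fall was -0.41 without the arrays with high ALB and -0.27 with centring (limma adjusted p = 0.288 and 0.388). CHCHD1 and GADD45GIP1 were higher at 188 dpn than at 94 dpc, by 0.80 ± 0.14 and 1.18 ± 0.18 (limma adjusted p = 9.03e-05 and 1.11e-05).

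Factors that work with the ribosome were followed beside it. At birth, of 14 translation factors and related proteins 8 rose and 1 fell, with a median log2 difference of 0.81. TSFM, which recycles the elongation factor that delivers tRNAs, had the largest rise, by 1.70 ± 0.18 (limma adjusted p = 2.66e-07). OXA1L, which inserts new proteins into the inner membrane, is the brightest of the list and rose by 1.43 ± 0.17 (limma adjusted p = 1.5e-06). The fall was that of MTRF1L, a release factor, from a geometric mean of 160.4 to a level under the background of 74.7 (limma adjusted p = 0.0162). It was not called with either other scaling, where 8 or 9 factors rose and 0 fell, nor without the arrays with low 5′ signal (limma adjusted p = 0.0946). Without those arrays 7 translation factors rose and 1, a factor other than MTRF1L, fell. Without the other 3 arrays of 1 dpn 7 rose and 2 fell. Of 19 assembly factors 10 rose and 2 fell, with a median of 0.55. METTL17 had the largest rise, by 1.65 ± 0.21 (limma adjusted p = 3.64e-06), and RPUSD4, a pseudouridine synthase, the largest fall, by 1.72 ± 0.48 (limma adjusted p = 0.00817). Without the arrays with low 5′ signal 8 assembly factors rose and 0 fell, and RPUSD4 differed by -0.37 (limma adjusted p = 0.406).

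Of 8 aminoacyl-tRNA synthetases 2 rose and 1 fell at birth, with quantile normalization 4 rose and 1 fell, and with centring 6 rose and 0 fell. FARS2 rose by 1.63 ± 0.17 and KARS, which serves cytosol and mitochondria, fell by 0.68 ± 0.15 (limma adjusted p = 2.45e-07 and 0.00133). With centring KARS differed by -0.35 (limma adjusted p = 0.126). Of 12 genes for transcription and RNA processing in mitochondria 4 rose and 1 fell, with a median of 0.10. ELAC2, which trims the 3′ ends of tRNAs, rose by 1.09 ± 0.17 (limma adjusted p = 3.48e-05).

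Between 1 and 28 dpn 1 of 14 translation factors rose and 3 fell, 0 of 19 assembly factors rose and 6 fell by limma, and 1 assembly factor was higher at an unadjusted p of 0.05. Without the arrays with low 5′ signal 0 translation factors rose and 1 fell, and 4 assembly factors fell. TSFM fell by 0.84 ± 0.18, and the assembly factor RBFA by 0.92 ± 0.12 (limma adjusted p = 0.00148 and 1.38e-05). Without these arrays the fall of TSFM was -0.48 (limma adjusted p = 0.0658). Between 94 dpc and 188 dpn 3 translation factors rose and 0 fell by limma, with a median of 0.13, and 1 was lower at an unadjusted p of 0.05. Quantile normalization gave 4 rises and a median of 0.43, and centring gave 9 rises and a median of 0.67. Of the assembly factors 8 rose and 4 fell, with a median of 0.03; with quantile normalization these were 9 and 1, with a median of 0.53, and with centring 10 and 1, with a median of 0.57. MALSU1, which binds the large subunit during assembly, rose by 1.26 ± 0.17 and the RNA helicase DHX30 fell by 1.08 ± 0.15 (limma adjusted p = 3.61e-06 and 5.11e-06).

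Proteins made by the mitochondrial ribosome join nuclear-encoded subunits in all respiratory complexes but complex II. Of 61 nuclear genes of the respiratory complexes, cytochrome c and ATP synthase 57 rose at birth and 0 fell by limma, also at an unadjusted p of 0.05, with a median log2 difference of 1.23. With quantile normalization 51 rose and the median was 0.77. The medians were 1.23 for complex I (32 genes), 1.31 for complex II (4 genes) and 1.88 for complex III with cytochrome c (3 genes). They were 1.39 for complex IV (8 genes) and 1.19 for ATP synthase (14 genes). Within complexes I to IV and ATP synthase the largest rises at birth were those of NDUFC1, SDHA, UQCRB, COX7A1 and ATP5I, by 2.44, 1.74, 1.99, 2.13 and 2.19 on the log2 scale. The rise of ATP5I had a limma adjusted p of 0.0464. It was not called with quantile normalization (limma adjusted p = 0.051), and without the arrays with low 5′ signal it was 0.61 (limma adjusted p = 0.671). Between 28 and 188 dpn 23 of them fell and 1 rose, with a median of -0.42. Centring on array medians left 5 falls and 1 rise, and omission of the arrays with high ALB left 4 and 0. At 188 dpn against 94 dpc 45 were higher and 3 lower, with a median of 0.64, which with quantile normalization became 17 and 3, with a median of 0.11. The list's own difference from the mitochondrial ribosomal genes was not tested beyond the values within arrays given above.

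The cytosolic ribosomal genes rose at birth and fell after it. At birth 35 of 59 rose and 0 fell by limma, also at an unadjusted p of 0.05, with a median of 0.46, and between 1 and 28 dpn 1 rose and 30 fell, with a median of -0.40. Without the arrays with low 5′ signal 0 rose and 20 fell in that comparison, with the same median of -0.40. Within the cytosolic large subunit RPL3 had the largest fall between 94 dpc and 188 dpn, by 2.17 on the log2 scale (limma adjusted p = 4.66e-11). Their direction at birth depended on the scaling: with quantile normalization 1 rose and 17 fell, with a median of -0.15. The mitochondrial ribosomal genes kept theirs, with 41 rises, 1 fall and a median of 0.80 under quantile normalization and 45 rises, 0 falls and a median of 1.05 with centring. Between 94 dpc and 188 dpn 7 cytosolic ribosomal genes rose and 6 fell, with a median of 0.05, and quantile normalization gave 0 and 34, with a median of -0.39, and centring gave 43 and 1, with a median of 0.58. For the mitochondrial ribosomal genes these were 31 and 0, with a median of 0.55, and 45 and 0, with a median of 1.00.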

How the data were processed

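Arrays of 1 kind were used throughout, with 24 animals, 1 array for each and 6 for each stage. The deposited values are linear signal intensities made by the authors with GCOS 1.1.1, per the submitters' processing notes; the settings of probe summary and scaling are not given in the sources used here. Each array had been scaled, since the mean without the 2% at either end was 498 to 499 in all arrays.

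Of 24118 probe sets, 183 controls were left out and 23935 were tested. The platform annotation gave 1 symbol for 10069 of them (6765 genes), several for 198 and none for 13668; 6 probe sets with several symbols including an MRPL or MRPS name were left out. Of the 58 member genes, 57 had their gene number in the RefSeq gene list, which names 77 MRPL and MRPS genes. The values were set to log2 with no constant added and fitted with limma 3.58.1 (lmFit and eBayes) in R 4.3.3 with the package data.table, version 1.17.8, with 4 stage means over all 24 arrays and 20 residual degrees of freedom. Tests were two-sided, and p-values were adjusted after Benjamini-Hochberg over all probe sets tested, with a threshold of 0.05. The fit was tested on simulated data. Python 3.11.15 with pandas 2.3.3, numpy 2.4.6 and matplotlib 3.10.9 made summaries and plots.

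Background was set at 74.7, the 95th percentile of 17 Tag control probe sets; 0 of the 58 genes had a stage mean under it, and the lowest was 175. Number of arrays limits the precision. The fit treats the 6 animals of a stage as independent, although 3 mothers per stage mean that some were littermates, so the p-values are too small by an unknown amount. Which animals shared a mother, sex and processing batch are not given in the labels and could not enter the fit. Values in each array are given for the 3 largest rises and falls that passed the test per comparison, for the 3 brightest members and for genes whose probe sets were called in opposite directions; from the other lists, examples were taken among the brightest gene and the largest rise and fall. The members and lists were chosen with earlier results of these data known. Alternatives covered scaling, added constants, a filter on dim probe sets, the probe set rule, the threshold, the settings of limma, fits of 2 stages alone and omission of each array.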

Additional observations from a re-analysis of the deposited data

Results flagged for a closer look

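In 4 of 80 groups of 6 arrays tested, 1 array stood apart, with a gap to its nearest neighbour past Dixon's 95% critical value for 6 samples. Chance gives about 1 such group in 20. At 94 dpc, animal 5 had the lowest median of the respiratory genes, 5147, against 7397 to 8731 in the other animals. The same animal had the lowest median of the cytosolic ribosomal genes, 23567, against 31239.8 to 35326 in the others. For MRPS21, animal 5 of 28 dpn read 4109 against 5999 to 6834. For MRPL53, animal 1 of 188 dpn read 6264 against 7278 to 7928.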

How the results depend on the processing

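For single genes, 93 results past the threshold were recomputed under the alternatives, which gave 2100 values. Of these, 1879 kept the call, 216 lost it and 5 turned in sign, and 44 of the 93 results kept their call throughout. The omission of sets of 3 arrays was added after the data had been seen, as were all alternatives for the patterns over 4 stages. With a gene's probe sets averaged in place of the brightest, the log2 difference between 1 dpn and 94 dpc became -0.30 for MRPL3 and -0.11 for MRPS2, that of MRPS2 between 28 and 1 dpn became 0.35 and that of MRPL33 between 188 dpn and 94 dpc became -0.69. Without 1 dpn animals 4 to 6, MRPL11 differed from 94 dpc by -0.0086. The counts of rises at 1 dpn and 188 dpn against 94 dpc stayed within 1.5 times the reported 37 and 29 under every alternative run but one, centring on array medians, with 45 rises at 188 dpn. Centring also gave 0 falls in both comparisons with 94 dpc, medians of 1.05 at 1 dpn and 1.00 at 188 dpn, 2 rises at 28 dpn against 1 dpn, 4 rises, 1 fall and a median of 0.16 at 188 against 28 dpn, and 37 genes lowest at 94 dpc. Quantile normalization gave 0 falls at 188 dpn against 94 dpc. Between 28 and 188 dpn 1 gene rose with 64 added, without the dimmest 30% of probe sets, or with the trend and robust settings of limma. Averaged probe sets gave 2 falls at 1 dpn and 3 at 188 dpn against 94 dpc. At an adjusted p of 0.01 there were 0 falls at 1 dpn and 0 at 188 dpn against 94 dpc, 2 rises and 7 falls between 1 and 28 dpn, 2 falls between 28 and 188 dpn, 5 genes highest at 1 dpn and 13 lowest at 94 dpc. Fits of 2 stages alone gave 0 falls at birth, 0 rises and 7 falls between 1 and 28 dpn, and 2 rises between 28 and 188 dpn. Without 1 dpn animals 1 to 3 there were 0 falls at birth and 0 rises to 28 dpn, with a median of -0.31. Without animals 4 to 6 there were 8 falls at birth, 17 rises to 28 dpn and 14 genes highest at 1 dpn. Without 188 dpn animals 1 to 3 there were 2 falls from 28 dpn and 0 from 94 dpc. The causes of these shifts were not tested. With 1 array left out at a time, rises at birth ran from 35 to 41, falls from 0 to 2 and the median from 0.68 to 0.82. Between 1 and 28 dpn there were 2 to 7 rises, 10 to 15 falls and medians of -0.12 to 0.085. Between 28 and 188 dpn 5 to 6 genes fell and 0 rose, with medians of -0.16 to -0.066. Between 94 dpc and 188 dpn 26 to 30 rose and 0 to 1 fell, with medians of 0.44 to 0.50. Genes highest at 1 dpn numbered 8 to 12, genes lowest at 94 dpc 16 to 23, and genes that differed over the stages 44 to 49. No paired analysis was possible because the animal numbers follow the order of deposition and pair no animals across stages.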
